A study of Mus musculus with 2 samples.

Results

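The Ifi200 genes are a family of interferon-inducible genes that lie next to each other on mouse chromosome 1. The members described here are Ifi203, Ifi204, Ifi205, Ifi207, Ifi209, Ifi211 and Mndal, taken as the rows of both matrices that carry these symbols, 7 of 32285 genes. The rule used gene symbols and no measured value, but the members and the gene lists below were chosen with earlier results of these data known. Cells came from subcutaneous tumors of MC38, a colon carcinoma line of the mouse, in hosts labelled WT, and were profiled by droplet single-cell RNA sequencing in 1 Control library and 1 IR library. The IR tumors were irradiated once with 20 Gy and taken 4 days later, and the Control tumors were not irradiated. The study used young adult mice of both sexes and pooled several tumors for each library. In its knockout experiments the name WT stands for mice with a floxed Ythdf2 gene and no Cre, and the sources used here do not say which WT mice gave these libraries. With 1 library per group there is no replicate, and no p-value is given: every difference below compares these 2 libraries, and every interval is an exact 95% interval that covers counting error only.

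Proteins of this family carry a HIN domain, which binds DNA, and most also carry a pyrin domain, through which proteins of innate immunity bind each other. Type I interferon acts through a receptor that activates a complex of transcription factors, with STAT2 and IRF9 among them, which binds interferon-stimulated response elements in the promoters of such genes. In macrophages and monocytes the family is best known for its inducibility by interferon and for members that sense foreign or misplaced DNA: Ifi204 has been described as a DNA sensor that signals through STING, and the neighbouring gene Aim2 encodes the DNA sensor of an inflammasome.

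Barcodes with at least 1000 UMIs and at most 25% mitochondrial UMIs were kept as cells. A UMI, or unique molecular identifier, marks 1 captured RNA molecule. In Control 4679 cells remained, at a median depth of 7302 UMIs, and in IR 3411 cells at 8266 UMIs. The libraries had 6 barcode sequences in common. By the study's protocol the sort took live CD45+ cells, whereas the cell type label of both samples is CD45+CD11b+Ly6Chi. Gates on marker genes found T, NK, mast and dendritic cells in both libraries, which the narrower label would leave out, and also 91 Control and 76 IR barcodes with collagen genes that were nearly free of Ptprc, the gene of CD45, at 9.47 and 7.64 CPM. CPM is the number of UMIs of a gene per 1000000 UMIs of the population, and since each molecule is tagged once near its 3′ end, it is not divided by gene length. The populations are gates on summed markers, not clusters, and are named by gate. Their sizes ranged from 8 B cells in IR to 2048 macrophage-gate cells in Control, and 10 populations had at least 20 cells in both libraries.

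The 7 members span 401 kb of chromosome 1, from position 173630917 to 174031810 (GENCODE vM21, GRCm38). In their order along the chromosome they are Ifi209 (ENSMUSG00000043263, plus strand), Ifi207 (ENSMUSG00000073490), Ifi204 (ENSMUSG00000073489), Mndal (ENSMUSG00000090272), Ifi211 (ENSMUSG00000026536), Ifi203 (ENSMUSG00000039997) and Ifi205 (ENSMUSG00000054203), the last 6 on the minus strand. Mndal is annotated from 173849126 to 173942491, so Ifi211 (173896345 to 173913046) lies inside it and Ifi203 (173920407 to 173942672) overlaps its start, all on 1 strand. Exons of Mndal and Ifi203 share 37 bases and those of Mndal and Ifi211 share none, so in this region reads from introns may not be assigned to 1 gene.

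The ends of the transcripts, from which this 3′ method reads, are in part the same sequence. Of the 90-base stretches in the last 500 bases of the protein-coding transcripts, 59.4% of those of Ifi205 and 59.4% of those of Ifi211 also occur in a transcript of another member, and 58.6% of those of Ifi209 occur in Ifi214, a further gene of the cluster. Mndal shares 4.25% of its stretches, and Ifi203, Ifi204 and Ifi207 share none with any other annotated gene. A read from a shared stretch cannot be placed by its sequence, so counts of Ifi205, Ifi211 and Ifi209, and to a lesser degree those of Mndal, are uncertain.

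The promoters are shown because most members have a match to the interferon-stimulated response element in common, as do other genes of the cluster. The RefSeq table of promoter windows (GRCm38.p6) held 8 windows for 6 of the 7 members. Within the 250 bases before the start, the core of this element, GAAA followed by any 2 bases and GAAA again, searched on both strands, occurred in 5 of these 6 members (Ifi203, Ifi205, Ifi207, Ifi211 and Mndal), and in 2.98% of all 32851 windows. It also occurred in 4 of 6 other cluster genes with a window (Ifi206, Ifi208, Ifi213 and Ifi214). For Ifi203, 1 of 2 windows holds it. Each of the 5 members has a match whose surrounding letters are alike, and these are the ones shown. Mndal has another, in its second window, 54 bases before that start and with different letters around it. Each line gives 30 bases, read 5′ to 3′ on the strand of the gene, with the match in capitals.
Ifi203: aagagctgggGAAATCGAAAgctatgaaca
Mndal: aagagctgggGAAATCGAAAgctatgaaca
Ifi207: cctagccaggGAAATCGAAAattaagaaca
Ifi211: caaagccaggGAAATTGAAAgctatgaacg
Ifi205: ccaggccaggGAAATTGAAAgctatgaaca
Ifi213: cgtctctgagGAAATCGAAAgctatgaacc
Ifi209: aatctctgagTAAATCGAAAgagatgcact
The 30 bases of Ifi203 and Mndal are the same, and Ifi205 and Ifi211 share a form of the match with each other that the remaining lines do not have. Ifi213 is no member and is shown for comparison with Ifi209, which has no match. On the strand shown, the Ifi209 line is 1 of 2 places in its window that are 1 base from the motif. It differs by the substitution G1T (the base of the motif, the position counted from 1 at its 5′ end, and the base of the window). Places 1 base from the motif were not counted on the other strand. The match shown began 35 to 41 bases before the RefSeq start in Ifi203, Mndal, Ifi207 and Ifi211 and 134 bases before it in Ifi205. By the GENCODE positions, the matches of Ifi203 and Mndal lie inside the annotated genes, and that of Mndal lies in an exon. The Ifi203 window at the GENCODE start of that gene is the one without a match. A match is a description of the letters and was not tested for binding.

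By the likeness of their promoters, Ifi203 and Mndal stood together, and so did Ifi205, Ifi207 and Ifi211. Windows were aligned without a penalty for overhanging ends, so identity covers only the bases that were aligned. Ifi203 and Mndal were identical at 97.5% of 239 aligned bases and Ifi205 and Ifi211 at 93.4% of 151. Ifi205 and Ifi207 followed with 89.0% of 154 and Ifi207 and Ifi211 with 87.8% of 246, and Ifi209 stayed between 63.7% and 68.7% of the aligned bases with Ifi207, Ifi211, Ifi205 and the window of Ifi203 that holds the match. The next 2 lines give the bases before the first annotated exon of Ifi211 (chr1:173913047-173913296, minus strand) and Ifi205 (chr1:174031811-174032005, minus strand), again 5′ to 3′ with the match in capitals.
Ifi211: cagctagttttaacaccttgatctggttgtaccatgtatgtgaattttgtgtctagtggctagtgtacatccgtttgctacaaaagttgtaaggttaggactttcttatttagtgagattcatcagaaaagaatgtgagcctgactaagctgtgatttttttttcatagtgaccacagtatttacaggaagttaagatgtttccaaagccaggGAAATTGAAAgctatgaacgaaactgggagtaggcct
Ifi205: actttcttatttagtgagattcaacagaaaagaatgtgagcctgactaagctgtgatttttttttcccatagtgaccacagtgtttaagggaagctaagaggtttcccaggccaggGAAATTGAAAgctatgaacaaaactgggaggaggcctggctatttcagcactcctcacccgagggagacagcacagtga
The Ifi205 line starts further into the region than the Ifi211 line, and from there both follow each other closely through the match.

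The first comparison asked how the family differed between the irradiated and the untreated tumor within each cell population. The summed level of the 7 members was higher in IR, with intervals that did not overlap, in 9 of the 10 populations with at least 20 cells in both libraries. Monocyte-gate cells had the highest Control level of these 10, 900.3 CPM (872 to 929), and in IR they had 1851 CPM (1822 to 1880), a 2.06-fold level. In macrophage-gate cells, which carry more C1q than monocyte RNA, the sum was 457 CPM in Control and 1155 CPM in IR, a 2.53-fold level. CD8 T cells went from 208 to 613 CPM, which was 2.95-fold, and NK cells from 259.7 to 400.4 CPM, which was 1.54-fold. Of the populations with at least 20 cells, mast cells and basophils were the exception, with 3 UMIs of the family in 36 Control cells and 28 in 62 IR cells. None of their members had 20 UMIs, so 0 were called, where 2.73% of 1871 genes were at least 2-fold higher and 4.76% were higher with no overlap. In sums of this kind, more cells with the RNA and more RNA per cell cannot be told apart. A later paragraph gives shares of single cells with a UMI, which do not separate them either, as more RNA per cell also raises such shares.

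**Figure D1:**
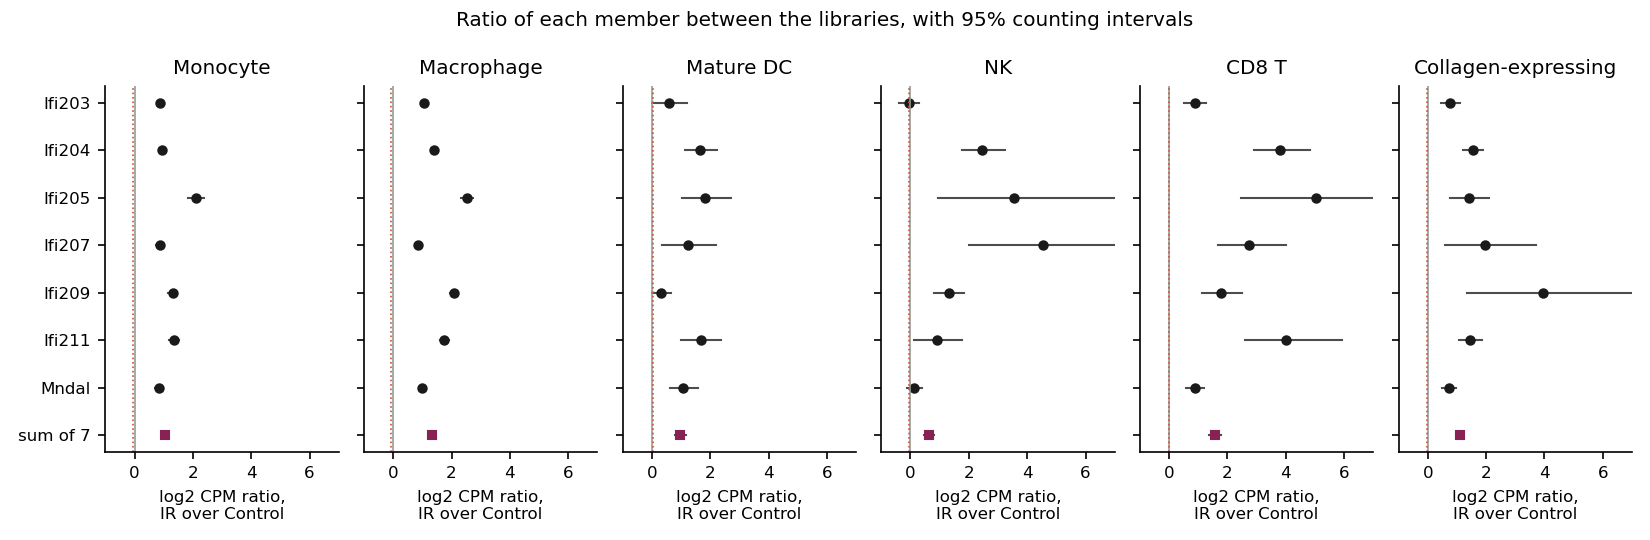
Log2 CPM ratio, IR over Control, of each member (points) and of the sum of the 7 (squares) in 6 cell populations. Horizontal lines are exact conditional 95% intervals for counting error, drawn to a limit of 7, the solid vertical line marks 0 and the dotted line the median of all genes tested. Ifi205 lies furthest right in monocyte-gate and macrophage-gate cells, and Ifi203 and Mndal lie near 0 in NK cells.

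In monocyte-gate cells (603 Control and 844 IR cells), 3 of the 7 members were at least 2-fold higher in IR with intervals that did not overlap, a call met by 1.73% of the 10428 genes with at least 20 UMIs. All 7 were higher with no overlap, which 8.43% of those genes were. The median log2 ratio over the members was 0.95, beside -0.05 over all genes tested. Ifi205 was at 30.4 CPM in Control and 129.7 CPM in IR, with a log2 ratio of 2.10 (1.83 to 2.37), the largest of the 7. Ifi211 went from 72.1 to 183 CPM (1.35, 1.17 to 1.53) and Ifi209 from 89.2 to 220.3 CPM (1.30, 1.14 to 1.47). The other members, Ifi204 with 231 and 447 CPM, Ifi203 with 181 and 335 CPM, Ifi207 with 143 and 261 CPM and Mndal with 153 and 274 CPM, had log2 ratios from 0.84 to 0.95. Their intervals overlapped each other and lay below those of Ifi205, Ifi209 and Ifi211.

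Macrophage-gate cells (2048 and 592 cells) had a similar order, mostly at larger ratios. Here 6 of 7 members were at least 2-fold higher, against 2.96% of 11743 genes, and all 7 were higher with no overlap, against 13.1%. The median over the members was 1.39, and -0.06 over all genes. Ifi205 went from 14.2 to 81.4 CPM, a log2 ratio of 2.52 (2.32 to 2.73). Ifi209 followed with 33.8 and 144 CPM (2.09, 1.95 to 2.23), then Ifi211 with 38.7 and 131 CPM (1.76, 1.62 to 1.90) and Ifi204 with 108 and 282 CPM (1.39, 1.30 to 1.47). Ifi203 at 89.0 and 184 CPM (1.05, 0.95 to 1.15), Mndal at 97.4 and 195 CPM (interval 0.90 to 1.10) and Ifi207 at 75.9 and 137 CPM (0.86, 0.74 to 0.97) were the least changed. Ratios in macrophage-gate cells exceeded those in monocyte-gate cells by more than their intervals for Ifi204, Ifi209 and Ifi211, and not for the other 4 members. The value depends on which cells the gate takes: with the interferon-inducible genes Ly6c2, Plac8 and Ms4a4c among the monocyte markers, the macrophage log2 ratio of the sum was 1.03 instead of 1.34, and that of Ifi207 was 0.45 instead of 0.86.

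Each gate's own markers and those of other cell types differed between the libraries. Monocyte markers went from 2798 CPM in Control to 1850 CPM in IR in the monocyte gate. Macrophage markers went from 10729 to 6434 CPM in the macrophage gate. Neutrophil markers, with 6 of 6 detected throughout, summed to 93.7 CPM in Control and 302 CPM in IR monocyte-gate cells, and to 74.3 and 186 CPM in macrophage-gate cells. Macrophage markers in the monocyte gate went from 1159 to 606 CPM. Markers of cDC2 went from 210.4 to 89.9 CPM in the monocyte gate and from 405 to 171 CPM in the macrophage gate, and NK markers from 69.7 to 103 CPM and from 44.6 to 129.8 CPM. Their part in the family ratios was not tested.

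The order along the chromosome and the size of the ratio did not run together. Ifi205 and Ifi209, at the ends of the member span, and Ifi211, in its middle, had the larger ratios, while Ifi203 and Mndal, which flank Ifi211, had ratios near 1 on the log2 scale. Other genes of the cluster were given by a list: of 10 listed symbols 6 were in the matrix and 4 had at least 20 UMIs in monocyte-gate cells. Of those 4, 3 were at least 2-fold higher there and in macrophage-gate cells, against 1.73% and 2.96% of all genes tested. These were Ifi206 (15.7 CPM in Control and 67.3 CPM in IR monocyte-gate cells, log2 ratio 2.10, 1.73 to 2.50), Ifi213 (23.5 and 88.8 CPM, 1.92, 1.61 to 2.24) and Ifi214 (10 and 77 UMIs, 2.37 and 9.22 CPM, 1.96). Ifi214 shares most of its 3′ stretches with Ifi209, so not all of their reads can be told apart. The exception was Aim2, the inflammasome sensor at the far end of the cluster, with 30.1 CPM in Control and 31.7 CPM in IR (0.08, -0.23 to 0.39). The list of 6 flanking genes outside the family had no gene with 20 UMIs in monocyte-gate or macrophage-gate cells.

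**Figure D2:**
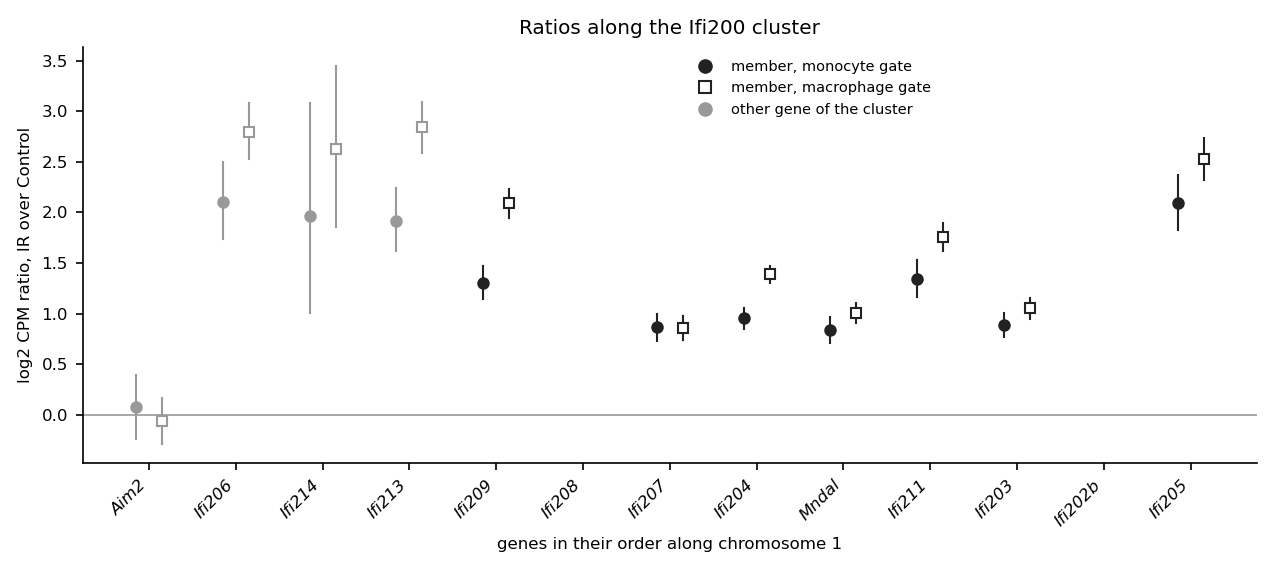
Log2 CPM ratio, IR over Control, with exact 95% counting intervals for the genes of the cluster in their order along chromosome 1, evenly spaced and not to genomic scale. Filled circles are monocyte-gate and open squares macrophage-gate cells, members are dark and other genes of the cluster grey, and genes with under 20 UMIs (Ifi208 and Ifi202b) have no point. Aim2 lies near 0 and the genes next to it lie near 2 or above.

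In lymphocytes the members differed widely. In CD8 T cells (192 and 130 cells) 5 of 7 members were at least 2-fold higher, against 4.3% of 8112 genes, and all 7 were higher with no overlap, against 7.41%. The median over the members was 2.74 and over all genes 0.01. Ifi204, the DNA sensor, had 11 UMIs or 8.52 CPM in Control and 162 UMIs or 118 CPM in IR, a log2 ratio of 3.79 (2.91 to 4.82). Ifi211 had 4 UMIs in Control and 69 UMIs, or 50.2 CPM, in IR (4.02, 2.60 to 5.93), and Ifi207 went from 6.19 to 41.4 CPM (2.74, 1.67 to 4.02). Ifi203 and Mndal were already at 71.2 and 98.3 CPM in Control and were at 130.2 and 181 CPM in IR, log2 ratios of 0.87 (0.50 to 1.25) and 0.88 (0.57 to 1.20). The intervals of these ratios do not overlap that of Ifi204. In CD4 T cells, with 46 and 28 cells, Ifi204 was at 21.4 and 181 CPM (3.08, 1.62 to 5.02) and Ifi203 at 161 and 122 CPM (-0.39, -1.18 to 0.39). Mndal there was at 102 and 189.8 CPM (0.90, 0.10 to 1.76), and its interval overlapped that of Ifi204. There 1 of the 4 members with 20 UMIs was called, against 2.74% of 3171 genes, and the same 1 was higher with no overlap, against 4.76%.

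NK cells (208 and 343 cells) had the smallest ratio of the sum among the populations with at least 20 cells, 0.62 (0.46 to 0.80). Of the 7 members 4 were at least 2-fold higher, against 1.29% of 8855 genes, and the same number were higher with no overlap, against 4.71%. Ifi203 was level at 79.8 CPM in Control and 77.0 CPM in IR (-0.05, -0.38 to 0.28), and Mndal was level at 125 and 136 CPM (0.12, -0.14 to 0.38). These make up most of the family RNA of NK cells in Control. Ifi204 went from 12.6 to 69.6 CPM (2.47, 1.77 to 3.25) and Ifi209 from 28.7 to 70.9 CPM (1.30, 0.82 to 1.82). Ifi207 and Ifi205 had 1 UMI each in Control NK cells and 51 and 26 in IR, with log2 ratios of 4.53 (1.99 to 9.87) and 3.56 (0.96 to 8.92) that rest on those single UMIs.

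RNA from other cells differed between the libraries in the lymphocyte gates. Free RNA in the droplets was estimated at 2.75% of the UMIs of CD8 T cells in Control and 9.08% in IR, and at 1.98% and 5.07% in NK cells. At these shares it would supply 7.73% and 15.4% of the family UMIs of CD8 T cells, and 4.44% and 13.2% of those of NK cells. For Ifi204 in CD8 T cells, 3.9 of the 11 Control UMIs and 27.1 of the 162 IR UMIs would be free RNA, and for Ifi207 in Control NK cells the estimate, 2.4, was above the 1 UMI seen. In IR NK cells 18.3 of the 51 UMIs of Ifi207 and 10.6 of the 26 UMIs of Ifi205 would be free RNA. Lyz2, an abundant lysozyme gene of myeloid cells, was at 169 and 239 CPM in CD8 T cells and 106 and 113 CPM in NK cells, beside 10510 and 8828 CPM in monocyte-gate cells. Lymphocyte barcodes with much C1q RNA, or much Lyz2, Csf1r and Cd68 RNA, were left out of these gates in both libraries. The free RNA estimate, which rests on C1q, and the Lyz2 levels are therefore capped by the gates. Summed over 5 myeloid markers the level in CD8 T cells was 941 CPM in Control and 1537 CPM in IR, with all 5 detected in both. Neutrophil markers summed to 1.55 CPM with 2 of 6 detected in Control CD8 T cells and to 191 CPM with 6 of 6 in IR, and mature dendritic cell markers to 49.6 CPM (4 of 5) and 149 CPM (5 of 5). After the free RNA was subtracted, the log2 ratio of the family was 1.53 in CD8 T cells and 0.53 in NK cells. The part of these marker levels in the lymphocyte results was not tested.

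Dendritic cells separated Ifi205 and Ifi209 from the rest. In cDC1, the cross-presenting type marked by Xcr1 and Clec9a, Ifi205 was at 354 CPM in Control (110 UMIs in 24 cells) and 435 CPM in IR (55 UMIs in 11 cells), with a log2 ratio of 0.30 (-0.20 to 0.78). No other population came near this Control level: monocyte-gate cells had 30.4 CPM and cDC2, the type marked by Cd209a and Clec10a, 19.8 CPM. In cDC2 (34 and 37 cells) Ifi205 then reached 143 CPM in IR, a log2 ratio of 2.85 (1.74 to 4.21), and was the 1 member of 7 called there, against 1.28% of 4845 genes, while 2 members were higher with no overlap, against 3.24%. The sum of the 7 in cDC2 was 632 CPM in Control and 1061 CPM in IR. Mature dendritic cells, marked by Ccr7 and Fscn1, had the highest Control level of Ifi209, 123 CPM (102 to 146), and in IR 154 CPM (136 to 175), a log2 ratio of 0.33 (0.02 to 0.65). In these cells (127 and 152) 5 of 7 members were at least 2-fold higher, against 2.55% of 7289 genes, and 5 were higher with no overlap, against 6.83%. The median of the members was 1.23, beside 0.05 over all genes. Ifi204 went from 35.1 to 111 CPM (1.67, 1.14 to 2.22) and Ifi205 from 14.6 to 51.6 CPM (1.82, 1.02 to 2.72), so that the member highest there in Control had the smallest ratio.

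**Figure D3:**
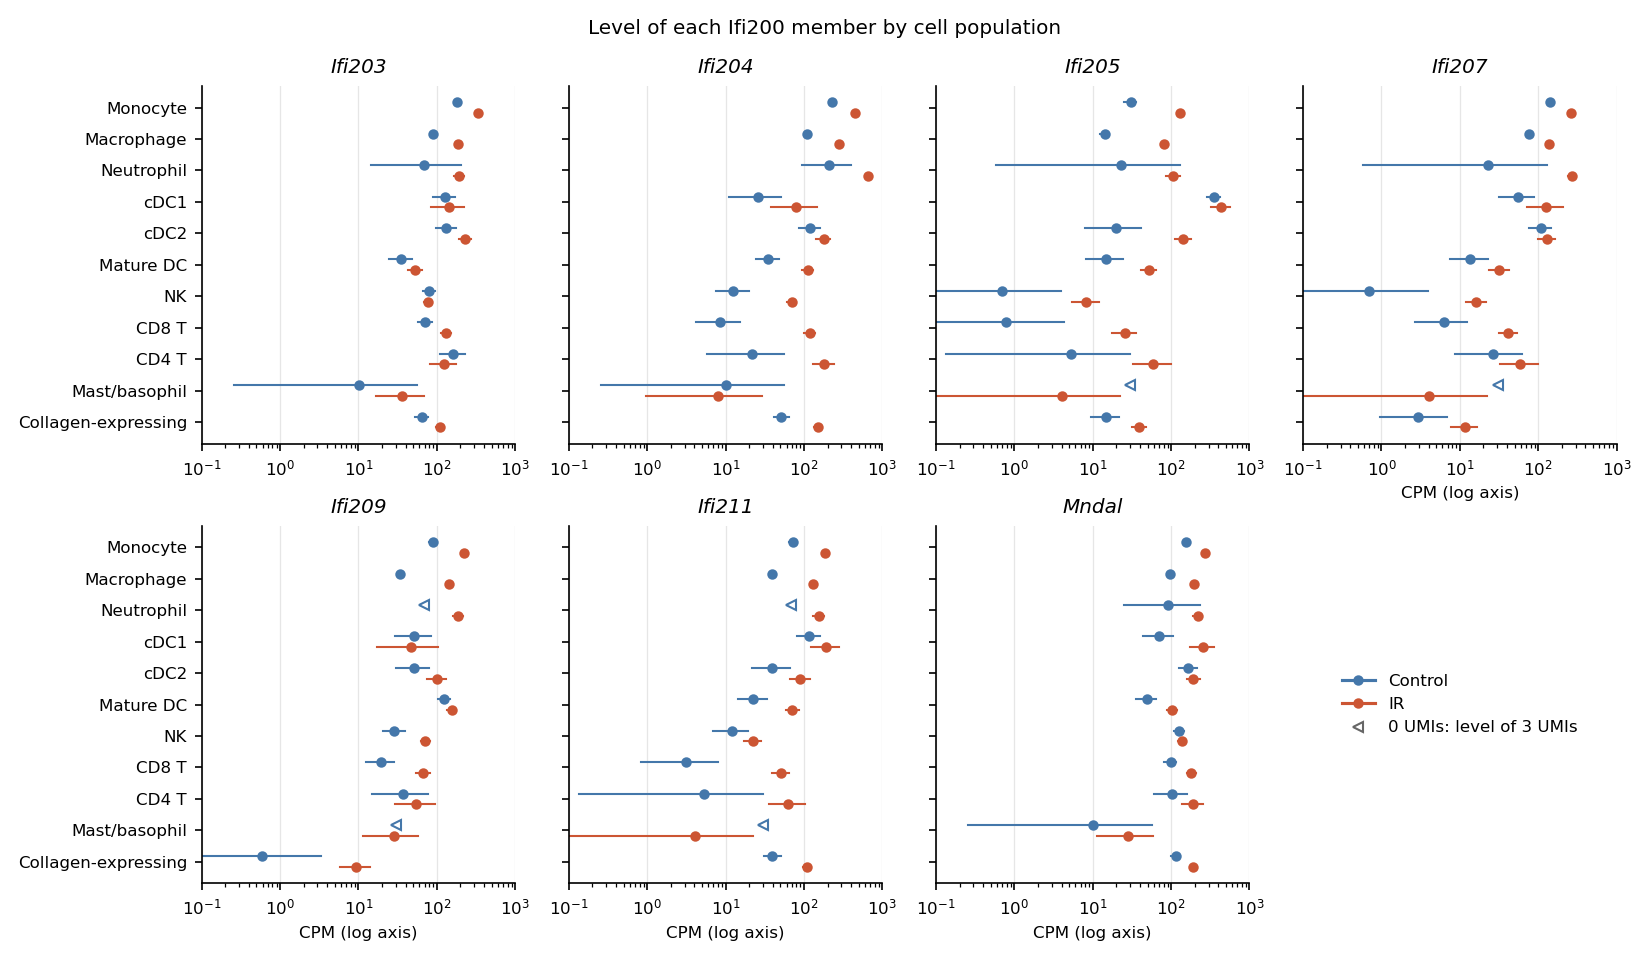
CPM of each member (log axis) in 11 cell populations of the Control library and the IR library, with exact 95% Poisson intervals cut at the left edge of 0.1 CPM. Open triangles mark a population with 0 UMIs and stand at the level of 3 UMIs. Ifi205 stands apart in cDC1 in both libraries, at 354 and 435 CPM, and Ifi209 is lowest in collagen-expressing cells in IR, at 9.24 CPM.

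Neutrophils were few in Control, 20 cells and 43419 UMIs, so their Control levels are loose. In IR (175 cells) they had the highest level of Ifi204 of any population, 649.8 CPM (599 to 704), from 207 CPM (94.8 to 393) in Control. The sum of the members in Control was 415 CPM (246 to 655), and in IR it was 1779.6 CPM (1695 to 1868). Of the 7 members 4 were called, against 3.23% of 4458 genes, and 4 were higher with no overlap, against 4.06%. Ifi209 and Ifi211 had 0 UMIs in Control, where 3 UMIs would be 69.1 CPM and the exact upper limit is 85.0 CPM, and 187 and 155 CPM in IR. Scaling by TMM instead of CPM adds 0.42 to all log2 ratios of neutrophils, and 0.10 and 0.14 to those of cDC2 and of mast cells and basophils.

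Collagen-expressing cells, which are stromal or tumor cells outside the CD45 gate, held 5 of 7 called members, against 1.65% of 9884 genes. All 7 were higher with no overlap, against 5.95%, and the median was 1.46 beside -0.02. Mndal was at 114 CPM in Control and 189 CPM in IR (0.73, 0.48 to 0.97), Ifi211 at 39.7 and 109 CPM (1.46, 1.07 to 1.87), and Ifi204 at 51.5 and 149 CPM (1.54, 1.20 to 1.89). Ifi207 and Ifi209 were scarce in these cells, at 2.96 and 11.7 CPM and at 0.59 and 9.24 CPM. Free RNA was estimated at 2.06% of their Control UMIs and 0.28% of their IR UMIs. Their macrophage markers summed to 171 CPM in Control and 20.9 CPM in IR, with 6 of 6 detected in both. Barcodes with much C1q RNA, which marks macrophages here, were left out of this gate in both libraries. Other marker lists differed in both directions. Monocyte markers went from 184 to 119 CPM, and mature dendritic cell markers from 172 to 185 CPM. Markers of cDC1 went from 14.2 to 29.7 CPM and neutrophil markers from 1.18 to 4.42 CPM. The part of these marker levels in the family ratios was not tested. The count of called members fell to 3 when the 6% of barcodes with the highest doublet score were left out. The share of all genes called in that setting is not given here.

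The order of the 10 populations differed between members. Neighbours in each order are named as equal where their intervals overlapped. Ifi203 in Control was highest in monocyte-gate cells (181 CPM), equal with CD4 T cells and cDC2, and in IR it was highest in monocyte-gate cells alone (335 CPM), above cDC2 (231 CPM). Ifi207, in contrast, was highest on the myeloid side among the 10. Control monocyte-gate cells, cDC2 and macrophage-gate cells (143, 107 and 75.9 CPM) lay above CD4 T cells (26.8 CPM) and the rest of the 10. Neutrophils were apart from this, as their interval was wide. Outside the 10, the 18 B cells of Control had 12 UMIs of Ifi207, 88.9 CPM (45.9 to 155), and the 8 of IR had 0 UMIs. Mndal was spread more widely, with 163.7 CPM in cDC2, 153 CPM in monocyte-gate cells and 125 CPM in NK cells in Control, which were equal neighbours, and 48.7 CPM in mature dendritic cells. Ifi211 was highest in monocyte-gate cells (72.1 CPM), above collagen-expressing cells (39.7 CPM). Mast cells and basophils had 1 UMI at most of any member in Control and no member above 36.1 CPM in IR.

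The second question was how the family stood to the interferon response as a whole. A reference list of 14 interferon-induced genes, chosen without members, was at least 2-fold higher in IR at 14 of 14 genes in both monocyte-gate and macrophage-gate cells, with a median log2 ratio of 2.42 and 2.58. Of all genes tested, 1.73% and 2.96% met this call. The extremes in monocyte-gate cells were Ifit3, at 14.7 and 149 CPM (3.34, 2.97 to 3.73), Ifit2, at 15.2 and 104 CPM (2.78, 2.41 to 3.17), Cxcl10, at 513 and 1307 CPM (1.35, 1.28 to 1.42), and Bst2, at 294 and 610.4 CPM (1.06, 0.97 to 1.15). Of 8 genes from the interferon receptor to its transcription factors 1 was called in monocyte-gate cells, against 1.73% of all genes tested. Irf7 went from 141 to 520 CPM (1.89, 1.76 to 2.01) and Stat2 from 40.6 to 76.2 CPM (0.91, 0.66 to 1.16), while Jak1 (158 and 146 CPM) and Tyk2 (32.3 and 32.0 CPM) were level. In the interferon gamma list 5 of 8 genes were lower with no overlap, among them the chemokine gene Cxcl9 (561 and 177 CPM, -1.66, -1.76 to -1.57) and Ciita, the activator of antigen presentation genes (31.5 and 19.4 CPM, -0.70, -1.04 to -0.36). The share of all genes lower with no overlap is not given here, so this count has no background beside it. In the same list 2 were higher with no overlap, against 8.43% of all genes tested, Gbp4 (34.4 and 55.9 CPM) and Irf1 (164 and 217 CPM).

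Single cells were then placed in 5 bins by their UMIs of the 14 reference genes per 10000 UMIs. In both libraries the family level rose from bin to bin. Among Control monocyte-gate cells it was 376 CPM in the lowest bin (under 5) and 2949 CPM in the highest (40 or more), and among IR monocyte-gate cells 565 and 3319 CPM. Cells of the middle bins were closer between the libraries than the whole gates were: from 10 to 20, the monocyte-gate sum in Control was 1212 CPM (1129 to 1299) and in IR 1200.2 CPM (1147 to 1255), and for macrophage-gate cells it was 671 CPM (638 to 705) and 689 CPM (650.2 to 730). From 5 to 10 the monocyte-gate level was higher in IR, 927 CPM (872 to 984) against 794 CPM (729 to 863). From 20 to 40 it was lower in IR, 1600.4 CPM against 2107 CPM. In macrophage-gate cells the intervals from 5 to 10 overlapped, at 456 CPM in Control and 450.4 CPM in IR. The macrophage-gate level from 20 to 40 was higher in IR with no overlap, 1231 CPM against 1010.4 CPM. In the highest macrophage-gate bin it was also higher in IR, 2377 CPM against 1525 CPM. The share of cells in each bin differed as well. The highest bin held 9.29% of monocyte-gate cells in Control and 34.2% in IR, and 4.15% and 25.5% of macrophage-gate cells. That bin has no upper limit, and its cells held 83.5 interferon UMIs per 10000 in Control and 104.5 in IR (monocyte gate), and 65.4 and 87.0 (macrophage gate).

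**Figure D4:**
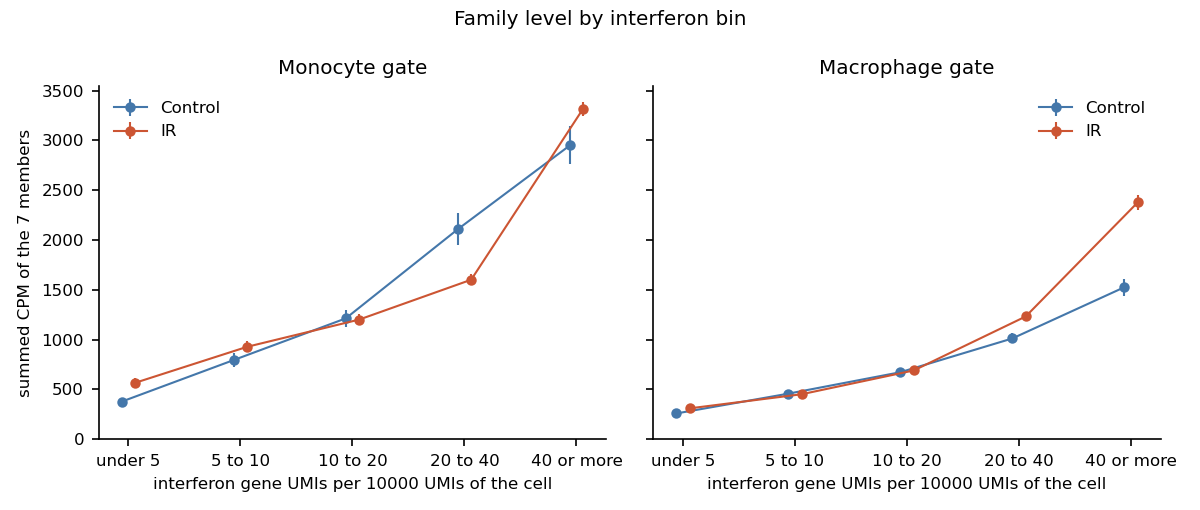
Summed CPM of the 7 members with exact 95% Poisson intervals, in cells binned by their UMIs of 14 interferon-induced genes per 10000 UMIs, for Control and IR cells of both gates. The lines rise from bin to bin. Between 10 and 20 the intervals of the libraries overlap in both gates, with 1212 CPM in Control and 1200.2 CPM in IR for monocyte-gate cells. Between 20 and 40 they do not overlap in either gate, with IR lower in monocyte-gate and higher in macrophage-gate cells.

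Members parted in this view. The bins were set with the data in view, and both measures share the total of each cell. When the IR level of each bin was weighted by the share of UMIs that the bin held in Control, the log2 ratio in monocyte-gate cells was 0.07 for Ifi203, -0.03 for Ifi204 and -0.01 for Mndal, beside 0.88, 0.95 and 0.84 without weights. It was 0.88 for Ifi205, 0.37 for Ifi207, 0.32 for Ifi211 and 0.30 for Ifi209. In macrophage-gate cells it was -0.04 for Ifi203, 0.04 for Mndal, -0.03 for Ifi207 and 0.17 for Ifi204, and 1.10 for Ifi205, 0.89 for Ifi209 and 0.69 for Ifi211. Ifi205, Ifi209 and Ifi211 are the members with 58.6% to 59.4% of their 3′ stretches shared, and the part of read placement in these values was not tested. In the highest bin of macrophage-gate cells, Ifi209 was at 118 CPM in Control and 349.6 CPM in IR, whereas Ifi203 was at 348 and 379.9 CPM.

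In monocyte-gate and macrophage-gate cells, the median log2 ratios of the DNA sensing and inflammasome lists were below those of the members, 0.95 and 1.39. Those of the interferon reference list, 2.42 and 2.58, and of the other cluster genes, 1.94 and 2.71, were above them. The DNA sensing list had 8 genes with 20 UMIs in monocyte-gate cells, and its median log2 ratio was 0.14. Of these 8 none was called 2-fold, against 1.73% of all genes tested, and 3 were higher with no overlap, against 8.43%. The largest ratios of the list were those of Zbp1, a sensor of Z-form nucleic acid that interferon induces, at 164 and 292 CPM (0.83, 0.71 to 0.96), and Cgas, the enzyme that makes the messenger of cytosolic DNA, at 10.4 and 17.9 CPM (0.77, 0.28 to 1.29). Its smallest were Rnaseh2b, with 90 and 125 UMIs (log2 ratio of CPM -0.51, -0.91 to -0.10), and Tmem173, the gene of STING, at 66.4 and 62.7 CPM (-0.08, -0.30 to 0.13). The inflammasome list had 0 of 8 genes called in monocyte-gate cells, against 1.73% of all genes tested, and 2 of 8 in macrophage-gate cells, against 2.96%. Higher with no overlap were 5 of 8 and 7 of 8, against 8.43% and 13.1% of all genes tested. The medians of the list were 0.42 and 0.49. Il1b, at 1885 and 3693 CPM (0.97, 0.93 to 1.01), and Il18, at 31.3 and 55.2 CPM (0.82, 0.54 to 1.11), had the largest ratios in monocyte-gate cells, and Pycard, the adaptor that joins sensor to caspase, was level at 340 and 347 CPM (0.03, -0.06 to 0.12).

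The members were also counted in single cells, each thinned to 1000 UMIs so that depth was the same. At least 1 member had a UMI in 49.1% of Control monocyte-gate cells (296 of 603) and 72.3% of IR cells (610 of 844), with intervals that did not overlap. At least 4 members occurred together in 2.16% and 10.3% of these cells. Macrophage-gate cells went from 34.1% (32.1% to 36.2%) to 60.5% (56.4% to 64.4%) with any member and from 0.39% to 4.22% with at least 4. For single members of monocyte-gate cells, Ifi204 occurred in 21.2% and 35.3%, Ifi205 in 2.32% and 11.3%, and Mndal in 15.1% and 22.6% of cells. In mast cells and basophils, where the family is nearly absent, 1 of 36 Control cells and 3 of 62 IR cells had a UMI of any member, 2.78% and 4.84%. Free RNA was estimated at 3.22% and 1.51% of the UMIs of these cells and at 5.17% to 8.45% of those of the monocyte and macrophage gates, so the shares in mast cells are not the background of those gates. Without thinning, shares of monocyte-gate cells with any member were 86.6% and 97.7%.

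**Figure D5:**
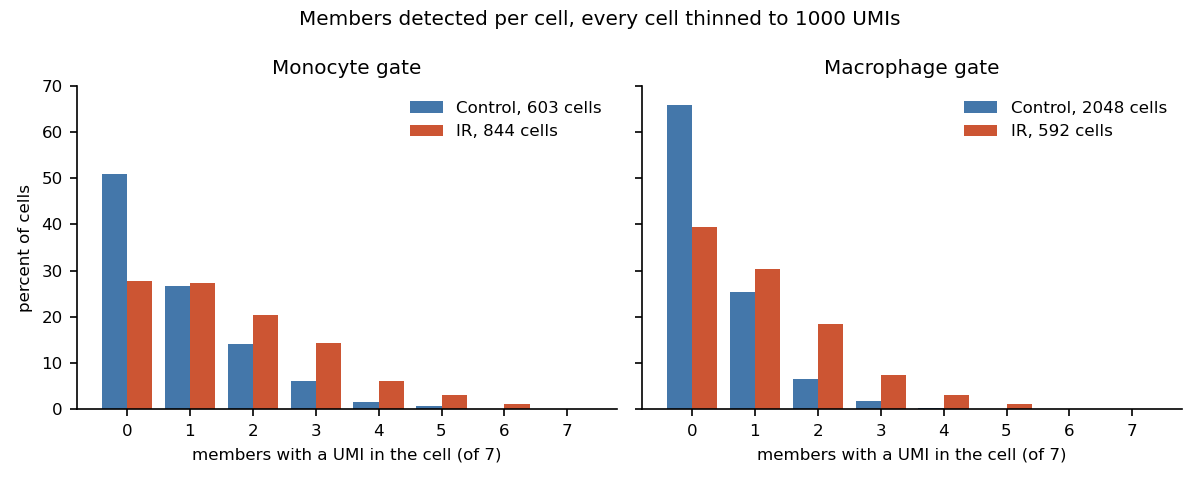
Percent of monocyte-gate and macrophage-gate cells by the number of the 7 members with at least 1 UMI, after every cell was thinned to 1000 UMIs. Bars start at 0 and are blue for Control and red for IR. Cells with 0 members fell from 50.9% to 27.7% in the monocyte gate and from 65.9% to 39.5% in the macrophage gate.

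Across 22 populations of at least 20 cells (a gate in 1 library each), the members went with each other to different degrees. Pearson's r of log2(CPM + 10) ran from 0.49 to 0.85 over the 21 pairs. The highest were Ifi203 with Mndal, at 0.85, and Ifi205 with Ifi211, at 0.84, and the second pair shares 3′ sequence. The lowest, at 0.49, were Ifi205 with Mndal and Ifi209 with Mndal. These populations share libraries, depth and free RNA, so the values describe and do not test. Among 9876 genes the sum of the 7 was most like Stard3 (0.91), Stat2 (0.90), Daxx (0.89), Rab5c (0.88), Gsap, Sra1 and Sem1 (0.87 each), Trim30d (0.86), Sppl2a and Sap30 (0.85 each). Single members had other companions. Ifi204 was most like Oas3, Tgm2 and Ifit2 (0.92, 0.89 and 0.89), Ifi207 like Ms4a6d, Fcgr1 and Tppp3 (0.95, 0.94 and 0.93), Ifi209 like Rasa4, Sp110 and Arpc4 (0.92, 0.89 and 0.86), and Ifi211 like Tpst1, Phf11d and Dhx58 (0.90, 0.89 and 0.88). The nearest genes of Ifi205 were Ifi211, Stat2 and BC147527 (0.84, 0.83 and 0.81), of Ifi203 Mndal, Pik3c2a and Ap1s2 (0.85, 0.83 and 0.82), and of Mndal Sra1, Rab35 and Eno1 (0.87, 0.86 and 0.86).

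Over all kept cells, the 7 members summed to 471 CPM in Control (19563 UMIs) and 1116 CPM in IR (42236 UMIs), a log2 ratio of 1.24 (1.22 to 1.27). The make-up of the libraries differed: macrophage-gate cells supplied 46.5% of the family UMIs in Control and 19.7% in IR, and monocyte-gate cells 19.4% and 36.6%. With the IR levels weighted by the populations' UMI shares in Control, the log2 ratio was 1.23. By member, the whole-library log2 ratio ran from 0.90 for Mndal (107 and 200.6 CPM) and 0.94 for Ifi207 (68.8 and 132 CPM) to 2.12 for Ifi205 (18.1 and 79.0 CPM).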

How the data were processed

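For each library the authors deposited 1 unfiltered matrix of UMI counts, not normalized, from 10x Chromium 3′ v3.1 libraries aligned to mm10. The processing notes and methods name Cell Ranger 6.0.1, while the header of both matrices names version 4. Totals were 48593879 UMIs in Control and 42406461 in IR. The members and gene lists were chosen with earlier results of these data known, and the gate thresholds were set after the data were seen.

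Barcodes with at least 1000 UMIs and at most 25% mitochondrial UMIs were gated by marker genes, each gate asking for 2 to 4 detected genes and a minimum of 5 to 50 marker UMIs per 10000. Myeloid barcodes were monocyte or macrophage by the larger of their monocyte markers and C1q. Barcodes positive for more than 1 lineage, other lineages with over 20 UMIs of C1q per 10000, and T, NK or B cells with over 15 UMIs of Lyz2, Csf1r and Cd68 per 10000, were left out of every population. A T or NK call on the same barcode went to the larger list. Scrublet (scanpy 1.11.5) marked 0 and 1 barcodes by its own threshold and is taken as not having worked, so leaving out its top 6% is an alternative. UMIs were summed per population and library and given as CPM, with exact Poisson, conditional ratio (log2) and Clopper-Pearson 95% intervals (scipy 1.17.1). A gene was tested with at least 20 UMIs over both libraries and called at a log2 ratio of at least 1 with no overlap of its Poisson intervals. With 1 library per group no test across samples was possible. Free RNA was estimated from droplets of 5 to 100 UMIs from C1q UMIs in lymphocytes, mast cells and collagen-expressing cells and from T cell receptor complex UMIs in myeloid and dendritic cells. TMM used edgeR 4.0.16. The genes named are all members, the other cluster genes with 20 UMIs, the 2 largest and 2 smallest log2 ratios of monocyte-gate cells in each other list, and the genes most like the family. The 14 reference genes were binned at 5, 10, 20 and 40 UMIs per 10000. Promoter windows are RefSeq's and gene positions GENCODE's. The result of a second promoter motif is not reported here.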

Additional observations from a re-analysis of the deposited data

Results flagged for a closer look

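Barcodes of 5 to 100 UMIs, taken as droplets without a cell and used above only to estimate free RNA, carried family RNA in both libraries. Summed over such droplets, the 7 members in Control were at 583 CPM (560.3 to 606), and in IR at 1039 CPM (1003 to 1075). In the IR library this is a signal in data outside the main measurement that lies above the level of the Control library. Among the members Ifi205 differed most there, at 18.1 and 66.8 CPM, and Ifi207 least, at 84.2 and 115 CPM. This is the free RNA that was subtracted in 1 of the alternatives.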

How the results depend on the processing

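No paired analysis was possible because each group has 1 library. The log2 ratio of the summed members stayed above 0 under all alternatives run, from 0.98 to 1.10 in monocyte-gate cells (10 alternatives), 1.03 to 1.39 in macrophage-gate cells, 0.89 to 1.17 in mature dendritic cells, 0.50 to 0.76 in NK cells, 1.47 to 1.60 in CD8 T cells and 1.06 to 1.23 in collagen-expressing cells. Values outside the counting interval of the main one were, in monocyte-gate cells, 1.10 with TMM and 0.98 with mitochondrial and ribosomal protein genes left out of the total, and in macrophage-gate cells 1.26 with that total, 1.39 after free RNA was subtracted and 1.03 with Ly6c2, Plac8 and Ms4a4c in the monocyte gate. With 10 added to each CPM, members called numbered 3 in mature dendritic cells and 2 in collagen-expressing cells, where 3 were called with the stricter gates, with a floor of 50 UMIs or without the top 6% of doublet scores. The share of all genes called under these changes is not given here, so these counts have no background beside them. Subtracting free RNA gave 1895 CPM in IR monocyte-gate cells, 445 CPM in Control macrophage-gate cells, 366 CPM in IR NK cells and 570.5 CPM in IR CD8 T cells. Shares of cells with any member at 2000 UMIs were 67.9% and 86.1% (monocyte gate, Control and IR) and 50.4% and 77.7% (macrophage gate), and without thinning 86.6%, 97.7%, 82.7% and 95.6%. No value reversed, and 114 of these values stayed as they were with 22 moved. The cause was not tested, other than that thinning sets the depth. Single libraries, pooled tumors, marker gates set after seeing the data and shared 3′ ends limit all values.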
